A study of Mus musculus with 24 samples.

Results

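The 150 genes described here had their highest RNA level at the 4-cell stage in control mouse preimplantation embryos, which had been injected with a scrambled oligonucleotide. They were chosen from the 6 control libraries alone. Counts were scaled to CPM, in which a library's counts over all genes and repeat families are brought to the same sum, and a gene qualified when its control 4-cell mean was 10 CPM or more and both control 4-cell libraries lay above every control 2-cell and 8-cell library. Of 55291 gene rows in the files, 1518 qualified. They were ranked by a score, the log2 of the 4-cell mean plus 1 CPM over the larger of the 2-cell and 8-cell means plus 1 CPM, and the 150 highest were kept.

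All embryos came from B6D2F1 mice (the labels give the background strain as BDF2) that were superovulated and mated. Antisense oligonucleotides (ASOs) at 20 µM, for MERVL-KD the total of an equal mix by the study's text, were injected into the male pronucleus of the zygote, either a scrambled ASO (control) or 3 ASOs against MERVL (MERVL-KD), an endogenous retrovirus whose copies are transcribed around genome activation. An ASO is a short synthetic strand that binds a matching RNA, which is then broken down. Total RNA was measured in 2 libraries of each group at the 2-cell (1.5 dpc), 4-cell and 8-cell stages (both labelled 2.5 dpc), each library from 30 pooled embryos, so 12 RNA libraries are compared. The zona pellucida was removed from every embryo, and control embryos carried an injected ASO like the others. The study's methods call the replicates biological, but no source used here names separate litters or cultures, so p-values measure the spread between these libraries, which may be partly technical.

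In the mouse, most transcription from the embryonic genome begins at the 2-cell stage, while RNAs inherited from the oocyte are degraded. By the 4-cell stage the 2-cell program is being shut down, and genes of growth, metabolism and the first lineage choices are building up toward the 8-cell stage, when the embryo compacts. A gene highest at the 4-cell stage therefore sits between a rising and a falling phase. In these bulk samples, less RNA per cell and fewer cells that express a gene cannot be told apart.

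The libraries held from 28167085 to 41482526 counts, of which repeat families took 15.8% to 25.2%. The internal region of MERVL took 1.07% to 6.57% of the counts in control libraries and 0.0278% to 0.157% in MERVL-KD libraries, so every library followed its label. The summed level of 8 oocyte markers was 1021 to 1408 CPM at the 2-cell stage and 89.1 to 139 CPM later, and that of 8 later embryo markers was 180 to 253 CPM at the 2-cell stage and 535 to 698 CPM later. The summed level of 8 markers of the 2-cell stage was 1397 to 1623 CPM over the control libraries, and this sum did not fall after the 2-cell stage. In MERVL-KD libraries it was 992 and 1112 CPM, then 768 and 779 CPM, then 1034 and 1104 CPM, and 5 of the 8 were called lower at the 4-cell than the 2-cell stage in MERVL-KD libraries. A sum follows its most abundant genes and can hide falls of single markers. On a longer list of 34 markers of the 2-cell stage, 25 were called lower and 3 higher in that comparison, beside 24.0% and 22.7% of all tested genes. The 150 genes that ranked highest at the control 2-cell stage summed to 37045 and 32932 CPM there and to 1180 and 1151 CPM at the control 4-cell stage. Markers of cumulus cells, sperm and red blood cells each summed to at most 8.37 CPM in any library. Red blood cell markers summed to 5.21 and 8.37 CPM in MERVL-KD 4-cell libraries against 0.808 and 1.74 CPM in control, a difference whose part in the results was not tested. The scaling factors that TMM adds to the library totals were 0.877 and 0.899 in the control 8-cell libraries against 1.02 and 1.03 in the control 4-cell libraries. This lowers the control 4-cell peak relative to the CPM used by the rule. With CPM from TMM-scaled totals 451 genes qualified in place of 1518, and 134 of the 150 still did.

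The control 4-cell peak was shallow. The scores ran from 0.50 to 1.32 with a median of 0.61, so the 4-cell mean plus 1 CPM was 1.42 to 2.50 times, with a median of 1.53 times, the larger neighbour plus 1 CPM. A score of 1 or more was reached by 9 members, and 87 members were at 1.5 times or more on the same scale. The 8-cell mean was the larger neighbour in 131 members and the 2-cell mean in 19, so in most of these genes the 8-cell level lay between the other 2. Member medians in control were 11.5 CPM at the 2-cell, 31.7 CPM at the 4-cell and 18.7 CPM at the 8-cell stage. Genes chosen by the same formula for the other stages serve as a comparison. The top 150 genes of the control 2-cell stage had a median peak of 18.4 times on that scale, and those of the 8-cell stage 1.61 times. These control values chose the members and are given as a description.

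At the threshold the ranking separated near-identical values. The last members were Sh2b1 (an adaptor of receptor kinases), Slc35e2 and L3mbtl3 (a methyl-lysine reader), and the next genes outside were St3gal2, Adpgk and Ankhd1, all with a score of 0.50. Without control 4-cell replicate 1 or 2, 101 or 92 of the 150 were chosen again. Without control 8-cell replicate 1 or 2 the numbers were 111 and 107.

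**Figure D1:**
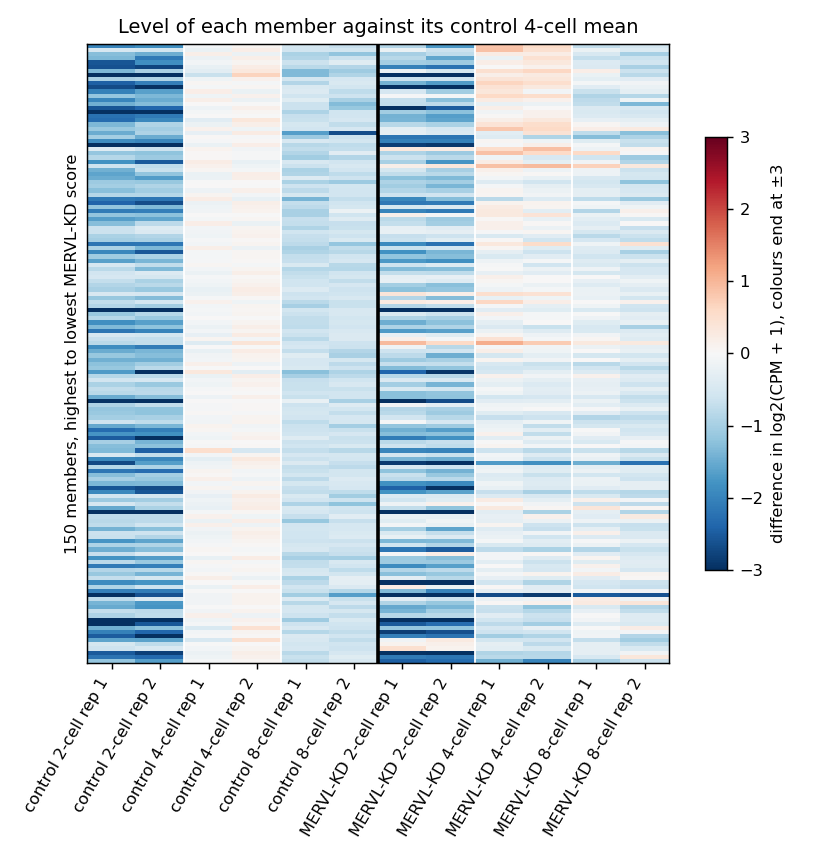
Heat map of the 150 members (rows, ordered by their MERVL-KD score) in the 12 RNA libraries (columns, control left of the black line and MERVL-KD right of it). Colour is the difference in log2(CPM + 1) from the member's control 4-cell mean, with colours ending at 3 in either direction. Control 4-cell columns are close to 0 by construction, 2-cell columns are the bluest, and MERVL-KD 4-cell and 8-cell columns differ less from each other than the control ones do.

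Parp8, which encodes a poly(ADP-ribose) polymerase family member of the mono-ADP-ribosylating kind, had the highest score. It is on chromosome 13 from 116854820 to 117025537 on the minus strand of GRCm38. Its control libraries held 20.5 and 26.9 CPM at the 2-cell stage, 158 and 181 CPM at the 4-cell stage and 80.8 and 53.4 CPM at the 8-cell stage. In MERVL-KD libraries it held 3.91 and 3.19, then 25.4 and 22.1, then 28.6 and 26.6 CPM. The MERVL-KD libraries were below the control libraries at every stage, with no overlap, and did not fall after the 4-cell stage.

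Gcm1, a transcription factor known for placental trophoblast differentiation, was second. Its control 4-cell libraries differed widely, at 15.7 and 40.8 CPM, against 0.895 and 0.678 CPM at the 2-cell stage and 9.63 and 13.1 CPM at the 8-cell stage. Its MERVL-KD libraries held 1.49 and 1.44, then 28.8 and 30.9, then 22.2 and 14.1 CPM. The 4-cell stage stayed the highest, and the control and MERVL-KD 4-cell libraries overlapped. In 9 members, Gcm1, Fgf4, Vmn2r3, Plekhg5, Jarid2, Atp1b2, Cacng7, Obox8 and 4732440D04Rik, the control 4-cell replicates differed by more than 1.5-fold, so their scores are the least precise.

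Echs1, which encodes the mitochondrial enoyl-CoA hydratase of fatty acid oxidation, held 19.8 and 29.4 CPM at the control 2-cell stage, 47.6 and 68.3 CPM at the 4-cell stage and 17.5 and 8.11 CPM at the 8-cell stage. Fgf4, the ligand by which epiblast precursors signal to primitive endoderm in the blastocyst, held 14.6 and 19.3 CPM, then 30.7 and 48.9 CPM, then 14.8 and 18.1 CPM. In both of these genes the 8-cell level was about the 2-cell level or below it. Ranks 5 to 10 were Vmn2r3 (a vomeronasal receptor gene), Ppp1r3b (a glycogen-targeting subunit of protein phosphatase 1), Gm37738, Iqca1l, Gm45871 and Ddx60 (a helicase known from antiviral responses), with scores from 0.95 to 1.12. Ranks 11 to 20 were Bid and Dapk1 (cell death), Zfp7, Ehd2, Crot (peroxisomal carnitine transfer), Plekhg5, Pde4a (cyclic AMP breakdown), Nxf2 (RNA export), Cep170 (centrosome) and Prkcd (a protein kinase C), with scores from 0.84 to 0.95.

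The promoters of Parp8, Gcm1 and Ifngr1 are shown because Parp8 had the largest difference between the groups at the 4-cell stage, Gcm1 had the largest rise of the 20 highest-ranked members in MERVL-KD libraries, and Ifngr1 was the gene that passed the tests for a 4-cell peak in MERVL-KD embryos. Each is 250 bases before to 50 after the RefSeq start on GRCm38.p6, written on the gene's strand, with GC boxes (GGGCGG on either strand) in capitals. Parp8 (chr13:117025482-117025781, minus strand), Gcm1 (chr9:78051708-78052007, plus strand) and Ifngr1 (chr10:19591699-19591998, plus strand) read as follows.
Parp8: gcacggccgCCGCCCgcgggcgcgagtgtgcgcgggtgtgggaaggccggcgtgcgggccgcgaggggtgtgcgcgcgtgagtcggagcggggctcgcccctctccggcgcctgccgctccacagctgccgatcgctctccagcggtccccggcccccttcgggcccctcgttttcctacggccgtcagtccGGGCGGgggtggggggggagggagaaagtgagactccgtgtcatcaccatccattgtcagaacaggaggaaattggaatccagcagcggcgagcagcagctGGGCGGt
Gcm1: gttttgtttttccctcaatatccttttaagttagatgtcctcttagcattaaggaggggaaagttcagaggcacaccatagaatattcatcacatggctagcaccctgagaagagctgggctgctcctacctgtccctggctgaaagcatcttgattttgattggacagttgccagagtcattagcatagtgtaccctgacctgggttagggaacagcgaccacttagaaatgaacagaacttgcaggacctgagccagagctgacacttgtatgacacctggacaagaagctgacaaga
Ifngr1: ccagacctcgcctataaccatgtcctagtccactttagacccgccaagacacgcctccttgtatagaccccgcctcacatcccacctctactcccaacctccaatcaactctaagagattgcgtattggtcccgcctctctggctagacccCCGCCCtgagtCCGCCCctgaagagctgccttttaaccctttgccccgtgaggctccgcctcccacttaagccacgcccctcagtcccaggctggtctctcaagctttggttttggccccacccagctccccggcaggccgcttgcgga
The Parp8 promoter was 72.3% G and C with 37 CpG pairs and 3 GC boxes. Ifngr1 was at 60.3% with 14 CpG pairs and 2 GC boxes, and Gcm1 at 46.3% with 1 CpG pair and 0 GC boxes, so these promoters differed in composition.

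Promoter sequences were found for 112 of the 150 members, 142 promoters in all, since some genes have several starts. The median G and C content was 61.5% in the members' promoters, 61.7% in 7042 promoters of genes with a control 4-cell mean of 10 CPM or more, and 52.7% over all 32851 promoters. A GC box was present in 62.7% of the members' promoters, 65.0% of those of the expressed genes and 35.7% of all. The CCAAT box (CCAAT) was present in 31.7%, 38.1% and 37.4%, the ETS-type letters CCGGAAG in 19.0%, 21.4% and 8.86%, and the cyclic AMP response element TGACGTCA in 4.93%, 3.55% and 1.79%. The GATA-type letters AGATAA were present in 9.15%, 5.98% and 11.2%, and the TEAD-type letters CATTCC in 13.4%, 11.3% and 14.7%. The CACCC box (CACCC) was present in 60.6%, 60.5% and 57.5%, and the E-box CACGTG in 9.15%, 10.9% and 7.15%. The TATA-box letters TATAAA were present in 6.34%, 6.86% and 13.6%, GCATGCGC (NRF1) in 4.23%, 6.01% and 2.71%, AAGATGGC (YY1) in 4.93%, 5.38% and 2.75%, GGATTA (OBOX or CRX type) in 4.93%, 5.75% and 7.06%, and TCAAGGTCA (NR5A) in 0, 0.199% and 0.423%. Letters were sought on both strands. The members' promoters were thus close in composition to those of other genes expressed at this stage.

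The 6 MERVL-KD libraries were not used by the rule, so the same stage differences could be tested in them. In MERVL-KD embryos most members were higher at the 4-cell than the 2-cell stage, and few passed the test against the 8-cell stage. Against the 2-cell stage, 78 of 150 members (52.0%) were called higher at the 4-cell stage and 0 lower. A call required 2-fold or more together with an adjusted p below 0.05 from edgeR's quasi-likelihood test, fitted over all tested genes and repeat families. An unadjusted p under 0.05 was reached by 130 members in either direction, and DESeq2 also called 0 lower. The background was 22.7% of 22482 tested genes called higher and 24.0% called lower. All members had a control 4-cell mean of 10 CPM or more, which 7068 gene rows reached. Shares of all tested genes, here and below, are therefore not matched to the members for level. Without the fold threshold 125 members were called higher (background 28.9%) and 3 lower (background 28.3%), among the latter Lrsam1 and Jarid2. The median log2 change of the members was 1.04, and that of all tested genes was -0.03. Among the top 150 genes of the control 8-cell stage, 128 were called higher and 0 lower, with a median of 2.46. Among the top 150 genes of the control 2-cell stage, 0 were called higher and 150 lower, with a median of -4.64. A rise from the 2-cell stage was thus not particular to the members.

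Against the 8-cell stage, 3 of 150 members (2.00%) were called higher at the 4-cell stage, beside 1.08% of all tested genes, and 1 member was called lower, beside 0.191%. The median log2 change of the members was 0.06, and that of all genes was 0.04. An unadjusted p under 0.05 was reached by 32 members in either direction. Scaling by library size alone gave the members a median of 0.19 with 5 called higher, but moved all tested genes to 0.17, so the members lay close to all genes under either scaling. Without the fold threshold 6 were called higher (Six4, Ifngr1, Echs1, Zfp7, Zkscan1 and Pkd1) and 1 lower, beside 1.63% and 1.01% of genes. Without MERVL-KD 8-cell replicate 2 the count of 3 became 1.

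Called higher at the 4-cell stage than at both other stages was 1 member, Ifngr1, the ligand-binding chain of the interferon gamma receptor, and 39 of 22482 genes were (0.173%). Without the fold threshold 5 members were, beside 0.320% of all genes. Without MERVL-KD 8-cell replicate 1 or 2 the count of 1 became 2 or 0, and with library size alone it was 3.

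The peak was also counted from the libraries without a fit. In 54 of 150 members (36.0%) both MERVL-KD 4-cell libraries lay above all MERVL-KD 2-cell and 8-cell libraries, beside 14.9% of 7295 genes with a MERVL-KD 4-cell mean of 10 CPM or more. Of the 135 members that reached this mean, 53 had the peak. The MERVL-KD mean was highest at the 4-cell stage in 106 members, at the 8-cell stage in 35 and at the 2-cell stage in 9. The MERVL-KD score, from the same formula, had a median of 0.14 (1.10 times) and ran from -0.87 to 1.37. Of the 150 genes that ranked highest by the rule in MERVL-KD libraries, 15 were members. With TMM-scaled CPM 40 members kept the peak, beside 8.46% of genes. Without MERVL-KD 4-cell replicate 2 the count was 94 beside 25.9% of genes, and without 8-cell replicate 1 it was 88 beside 22.5%. In the 2 comparison groups, 150 of 150 genes of the control 2-cell group kept their peak in MERVL-KD libraries and 76 of 150 of the control 8-cell group did. How far the stage differences of these groups differ from one another was not tested.

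**Figure D2:**
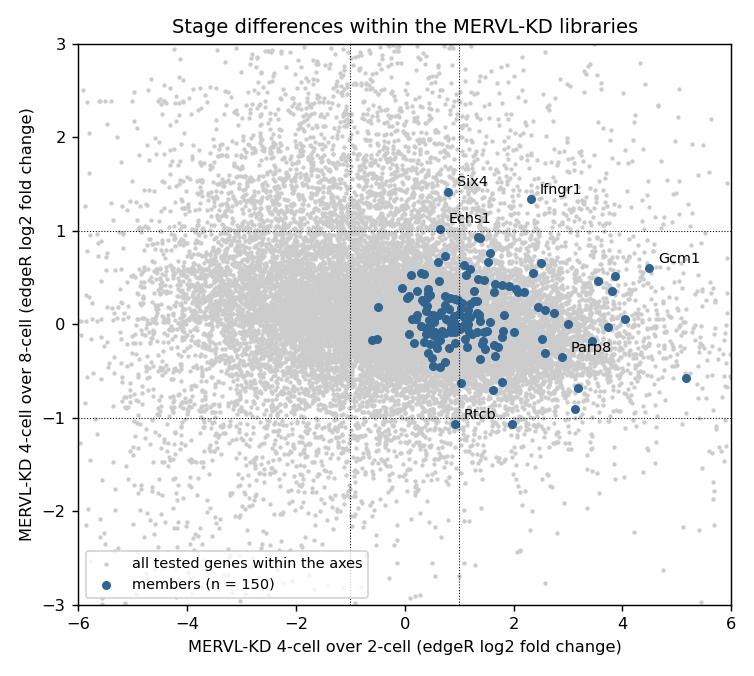
Within the 6 MERVL-KD libraries, edgeR log2 fold change of the 4-cell over the 2-cell stage (x axis) and over the 8-cell stage (y axis), for all tested genes within the axes (grey) and the 150 members (blue), with dotted lines at 2-fold. Of the members 146 lie to the right of 0 and 4 to the left, with a median of 1.04, and they centre on 0.06 on the y axis.

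The MERVL-KD score was below the control score in 142 of 150 members. The control score had been ranked to be high and the MERVL-KD score had not, so a lower second score is built into the choice and the count is given as a description. The 8 members with a higher MERVL-KD score were Atrip, Ifngr1, Six4, Cybc1, Frat2, Parp9, Sh2b1 and L3mbtl3.

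**Figure D3:**
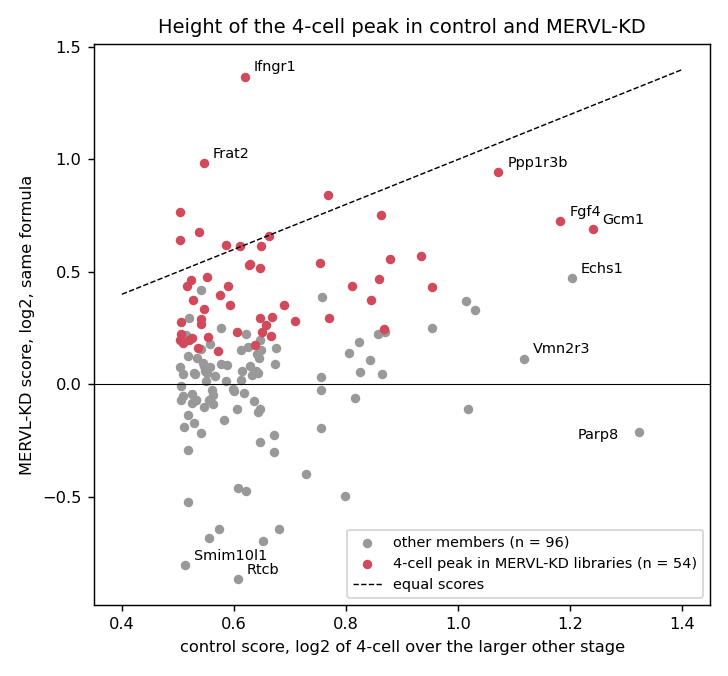
Score in MERVL-KD libraries (y axis, log2) against the score in control libraries that ranked the members (x axis, log2), 1 point a member. The 54 red points are members whose MERVL-KD 4-cell libraries both lay above the other MERVL-KD libraries, and 8 points lie above the dashed line of equal scores.

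Ifngr1 had the highest MERVL-KD score, at 1.37. It held 6.50 and 3.19 CPM at the MERVL-KD 2-cell stage, 24.0 and 19.6 CPM at the 4-cell stage and 7.31 and 8.39 CPM at the 8-cell stage, so the 4-cell libraries stood clear of all others. Its log2 fold change was 2.32 ± 0.30 (SE) against the 2-cell stage (adjusted p = 1.98e-05) and 1.34 ± 0.28 against the 8-cell stage (adjusted p = 0.0317). The second call was lost without MERVL-KD 4-cell replicate 1 (adjusted p = 0.0831) and without 8-cell replicate 1 or 2 (adjusted p = 0.0783 and 0.0614). In control it held 2.48 and 2.88, then 12.1 and 13.5, then 8.43 and 7.57 CPM.

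Six4, a homeobox transcription factor, held 16.2 and 16.1 CPM at the MERVL-KD 2-cell stage, 26.0 and 24.6 CPM at the 4-cell stage and 8.49 and 8.77 CPM at the 8-cell stage. Its 8-cell libraries were the lowest, with a 4-cell over 8-cell log2 fold change of 1.42 ± 0.18 (adjusted p = 0.00396). Against the 2-cell stage its change was 0.80 ± 0.18 (adjusted p = 0.00199), under 2-fold. Echs1 was at 47.0 and 41.6, then 45.8 and 77.9, then 33.4 and 23.1 CPM, and its 4-cell over 8-cell change of 1.02 ± 0.24 (adjusted p = 0.0475) depended on the higher 4-cell library. Without it the change was 0.53 (adjusted p = 0.215). The Echs1 call was lost under 9 alternatives in all, among them the replicate block (adjusted p = 0.113) and all 12 libraries in 1 fit (adjusted p = 0.304).

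The next highest MERVL-KD scores were those of Frat2 (a GSK-3 binding protein of Wnt signalling, 0.98), Ppp1r3b (0.94), Atrip (the partner of the ATR checkpoint kinase, 0.84) and Sh2b1 (0.76). Frat2 held 8.75 and 6.21, then 19.7 and 14.7, then 8.87 and 7.52 CPM in the MERVL-KD libraries. Its change against the 8-cell stage was 0.94 ± 0.23 (adjusted p = 0.0551), which misses the threshold. Gcm1 and Fgf4 also kept both 4-cell libraries on top, and against the 2-cell stage Gcm1 rose by a log2 of 4.49 ± 0.26 (adjusted p = 1.27e-08) and Fgf4 by 1.08 ± 0.22 (adjusted p = 0.00102). Against the 8-cell stage their changes were 0.60 ± 0.21 and 0.63 ± 0.22 (adjusted p = 0.151 and 0.149), which did not pass. The Fgf4 call against the 2-cell stage fell below 2-fold with library size alone (0.93) and without MERVL-KD 2-cell replicate 2 (0.91) or 4-cell replicate 2 (0.96).

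At the other end, Rtcb had the lowest MERVL-KD score, at -0.87. It encodes the ligase that joins tRNA exons and the spliced Xbp1 RNA. It held 6.33 and 7.03 CPM at the MERVL-KD 2-cell stage, 13.7 and 9.13 CPM at the 4-cell stage and 18.9 and 24.4 CPM at the 8-cell stage, so its highest stage was the 8-cell stage. It was the member called lower at the 4-cell than the 8-cell stage, with a log2 fold change of -1.07 ± 0.24 (adjusted p = 0.0377). The call was lost with library size alone (-0.92, adjusted p = 0.0568), without MERVL-KD 4-cell replicate 2 (adjusted p = 0.136) and without 8-cell replicate 2 (adjusted p = 0.220). Smim10l1 (-0.81), the provisionally named gene Gm47004 (-0.70) and Lrsam1 (an E3 ubiquitin ligase, -0.68) followed. Lrsam1 was highest at the 2-cell stage in MERVL-KD libraries, with 14.8 and 11.3 CPM, and its 4-cell over 2-cell change was -0.60 ± 0.22 (adjusted p = 0.0367), under 2-fold.

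The members fall into hand-made function groups, written from the gene names after the members were known and given no test. Their counts stand beside 52.0% of all members and 22.7% of all tested genes called higher at the 4-cell than the 2-cell stage, and several groups lay near the members' own share. Counts of both MERVL-KD 4-cell libraries on top stand beside 36.0% of all members. Among genes with a MERVL-KD 4-cell mean of 10 CPM or more that share was 14.9%. The 16 genes of signalling and growth control included 13 called higher at the 4-cell than the 2-cell stage in MERVL-KD libraries, and their median log2 change was 1.38. Among them were Dapk1 (a death-associated kinase, 3.55 ± 0.29), Pde4a (2.50 ± 0.21) and Plekhg5 (1.45 ± 0.11), and Prkcd at 0.98 ± 0.12 was just under 2-fold. Of the 8 genes of ADP-ribosylation, antiviral response and cell death, 6 were called higher, with a median of 1.79. Ddx60 rose by 2.73 ± 0.22 and Bag3, a co-chaperone of the heat shock response, by 1.79 ± 0.13. The same group held both Parp8, whose MERVL-KD 4-cell libraries were far below control, and Ddx60, whose MERVL-KD 4-cell libraries (98.3 and 115 CPM) were above control (73.9 and 82.8 CPM).

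The 14 genes of RNA synthesis, processing and ribosome assembly included 9 called higher than at the 2-cell stage, with a median of 1.13, and Rtcb was in this group. Ddx10, a helicase of ribosome assembly, held 41.2 and 32.8, then 110 and 98.1, then 103 and 118 CPM in MERVL-KD libraries, a rise of 1.64 ± 0.14 (adjusted p = 5.24e-07) that did not turn down. Of the 9 genes of DNA replication and repair, 5 were called higher. Top2a, the topoisomerase that decatenates chromosomes, held 226 and 180, then 447 and 389, then 337 and 318 CPM, a rise of 1.20 ± 0.11 (adjusted p = 1.23e-06). The primase and polymerase alpha subunits Prim2 and Pola2 rose by 1.20 ± 0.17 and 1.34 ± 0.24.

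Of 17 transcription regulators, 6 were called higher than at the 2-cell stage, with a median of 0.82, and 10 kept both MERVL-KD 4-cell libraries on top. The zinc finger genes Zfp72 (3.73 ± 0.34) and Zfp974 (2.36 ± 0.16) rose most of the zinc finger genes in the group. Among the 6 chromatin regulators, L3mbtl3 (3.86 ± 0.16) and Bcl7a, a subunit of BAF remodelling complexes (4.05 ± 0.18), rose steeply. Jarid2, a subunit of Polycomb repressive complex 2, behaved differently. Its MERVL-KD libraries held 345 and 447 CPM at the 2-cell stage, 254 and 252 CPM at the 4-cell stage and 225 and 182 CPM at the 8-cell stage, a fall of 0.50 on the log2 scale from the 2-cell to the 4-cell stage (SE 0.13, adjusted p = 0.00655). In control it held 124 and 121, then 268 and 520, then 268 and 223 CPM, and its control 4-cell replicate 1 lay only just above 8-cell replicate 1. Kdm5a, an H3K4 demethylase, and Ehmt1, an H3K9 methyltransferase, rose by 0.73 ± 0.10 and 1.16 ± 0.12 in MERVL-KD libraries.

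Of 11 genes of the cytoskeleton, centrosome and nuclear envelope, 7 were called higher, with a median of 1.33, among them Cep170 (1.36 ± 0.12) and Ehd2, an endocytic ATPase (1.33 ± 0.21). The 19 metabolic enzymes and carriers had 6 called higher and the lowest median, 0.62. The 14 members with noncoding or provisional names had 9 called higher, and 0 of them kept both MERVL-KD 4-cell libraries on top. In this group Gm42585, Gm26648 and 4732440D04Rik share exon bases with genes of higher control 4-cell CPM. The steepest rise of any member was that of Gm37018 in this group, 5.18 ± 0.37 (adjusted p = 9.59e-08). The remaining 36 members had 14 called higher.

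Lists of known pathways were compared with the members. Of 7068 genes with a control 4-cell mean of 10 CPM or more, 1518 (21.5%) qualified under the rule and 150 (2.12%) were members, and the lists also hold genes below that level, so counts this small say little about any list. Of 49 ribosome biogenesis genes, 19 qualified under the rule in control and 1, Ddx10, was among the 150. Within MERVL-KD libraries 26 of the 49 passed the test as higher and 1 as lower when the 4-cell stage was set against the 2-cell stage, beside 22.7% and 24.0% of all tested genes. Of 42 DNA replication genes 10 qualified and 2 (Pola2, Prim2) were members, and 19 were called higher and 5 lower against the 2-cell stage. Of 43 mitosis genes 15 qualified and 1 (Top2a) was a member, and of 51 chromatin modifiers 16 qualified and 3 (Jarid2, Kdm5a, Ehmt1) were members. In the order given, 49, 38, 42 and 46 genes of these lists were at 10 CPM or more in control 4-cell embryos. Of 450 genes picked by zinc finger names alone, with no check of their protein domains, 171 reached that level, 42 qualified and 8 were members. Of 37 p53 targets 6 qualified, of 33 compaction and polarity genes 7, of 50 early embryo transcription factors 4, of 27 cholesterol and fatty acid synthesis genes 3 and of 30 immediate early genes 3, with 0 members on each. At 10 CPM or more were 23, 28, 33, 15 and 7 genes of these lists in turn. Of 15 heat shock genes 2 qualified and 1 (Bag3) was a member, of 33 signalling ligands and receptors 4 qualified and 1 (Fgf4) was a member, of 33 RNA decay and translation regulators 6 qualified, and of 27 amino acid and unfolded protein stress genes 1 did. Here 11, 13, 29 and 16 genes in turn were at 10 CPM or more. Cytosolic ribosomal proteins, histones and small RNAs had 0 genes that qualified. GENCODE gave 138 members as protein coding.

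MERVL-KD and control libraries were compared at each stage. The control libraries also chose the members, which leans these differences downward at the 4-cell stage and upward at the other stages. The counts are therefore a description, and so are the fold changes and adjusted p of single members against control given below. At the 4-cell stage edgeR called 0 members higher (2.66% of 19738 tested genes) and 6 lower (1.88%), namely Parp8, Plekhg6, Rtcb, Gm19040, Gm47004 and Rinl. Without control 4-cell replicate 1 the count in both directions was 12. With no fold threshold 33 were called lower and 7 higher, beside 5.84% and 4.92% of genes, and an unadjusted p under 0.05 was reached by 68. At the 2-cell stage 6 were called higher (background 4.37%) and 6 lower (background 2.24%), and without a fold threshold 20 and 15, beside 6.70% and 7.39%. At the 8-cell stage 0 were called higher (background 0.641%) and 2 lower (background 1.06%), with 50 members at an unadjusted p under 0.05, and without a fold threshold 7 and 2 (background 1.50% and 3.56%). Scaling by library size alone moved the medians of all genes from 0.01 to 0.30 at the 2-cell stage and from 0.01 to 0.13 at the 8-cell stage, and those of the members from 0.06 to 0.35 and from 0.14 to 0.27. DESeq2 also called 0 members higher and 7 and 2 lower at the 4-cell and 8-cell stages.

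Parp8 was the member furthest below control, with a log2 fold change of -2.90 ± 0.12 (adjusted p = 1.15e-07) at the 4-cell stage, -3.03 ± 0.21 (adjusted p = 1.03e-07) at the 2-cell stage and -1.41 ± 0.18 (adjusted p = 0.00173) at the 8-cell stage. Plekhg6 held 19.6 and 24.3 CPM in the control 4-cell libraries and 6.06 and 5.38 CPM in the MERVL-KD ones, a change of -2.0 ± 0.20 (adjusted p = 8.53e-05). It was also called lower at the 8-cell stage (-1.53 ± 0.27, adjusted p = 0.00799) and at the 2-cell stage (-1.58 ± 0.41, adjusted p = 0.0171), the last only with control 2-cell replicate 2 in the fit (without it -0.73, adjusted p = 0.396). Rtcb was called lower at the 2-cell (-1.37 ± 0.21, adjusted p = 0.000317) and 4-cell stages (-1.84 ± 0.18, adjusted p = 8.53e-05), and at the 8-cell stage its change was -0.34 ± 0.18 (adjusted p = 0.332), with overlapping libraries. Control held 16.7 and 11.6, 37.4 and 40.4, and 22.7 and 27.7 CPM of Rtcb at the 3 stages. Ddx10 was lower at the 2-cell stage (-1.27 ± 0.13, adjusted p = 8.1e-06), and at the 4-cell stage by -0.94 ± 0.10 (adjusted p = 0.000113), just under 2-fold, from 197 and 183 CPM in control.

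Smaller differences completed the 4-cell calls. Gm19040 was at -1.14 ± 0.22 (adjusted p = 0.00634), Gm47004 at -1.04 ± 0.22 (adjusted p = 0.0105) and Rinl at -1.02 ± 0.19 (adjusted p = 0.00519). Gm47004 and Rinl were under 2-fold with library size alone and without some of the libraries. At the 2-cell stage the members called higher were Csgalnact2, an enzyme of chondroitin sulphate synthesis (3.21 ± 0.43), Unc45a, a myosin chaperone (1.42 ± 0.23), Jarid2 (1.41 ± 0.11), Atp1b2, a sodium pump subunit (1.38 ± 0.17), Ttbk2, a tau tubulin kinase (1.11 ± 0.18) and Six4 (1.03 ± 0.18). Those called lower beside Parp8, Plekhg6, Rtcb and Ddx10 were Zyg11a (-1.58 ± 0.18) and Nxf2 (-1.50 ± 0.28). Csgalnact2 was at 0.239 and 0.581 CPM in the control 2-cell libraries against 5.15 and 4.40 CPM in the MERVL-KD ones, and the 4-cell libraries of both groups lay between 10.6 and 12.8 CPM. Among members above control at the 4-cell stage without reaching 2-fold were Ifngr1 (0.70 ± 0.18, adjusted p = 0.0261), Zfp974 (0.52 ± 0.12, adjusted p = 0.0207) and Atp1b2 (0.87 ± 0.24, adjusted p = 0.0409).

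**Figure D4:**
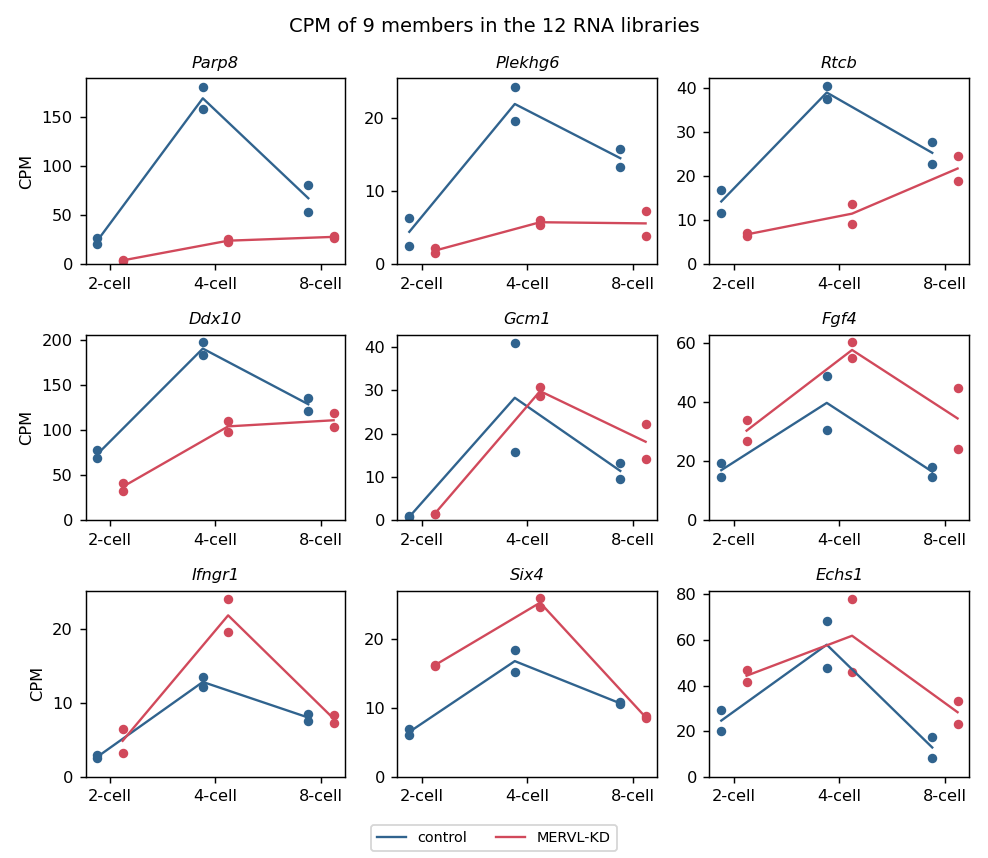
CPM (y axis, from 0) of 9 members at the 3 stages (x axis) in control (blue) and MERVL-KD (red) libraries. Points are single libraries (2 a group) and lines join the group means. Parp8, Plekhg6, Rtcb and Ddx10 are lower in MERVL-KD at the 4-cell stage, and Ifngr1, Fgf4 and Six4 are higher there.

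Across the members, the summed CPM of the 4-cell stage came to 10038 and 11028 for control libraries and to 9446 and 8884 for MERVL-KD libraries. The 2-cell sums were 4240 and 4383 against 5518 and 5301, and the 8-cell sums 6572 and 6733 against 8116 and 7516. The control sums were set apart by the rule, so nothing is read from the difference between the groups. They also depend on the scaling. At the 2-cell stage the median log2 change of all tested genes was 0.30 with library size alone and 0.01 with TMM. The counts that follow use the same CPM, without TMM. Both MERVL-KD libraries lay below both control libraries in 69 members at the 4-cell stage (46.0%, beside 33.3% of 7068 genes with a control 4-cell mean of 10 CPM or more) and above them in 20 (13.3%, beside 30.5%). At the 8-cell stage they lay above in 86 (57.3%, beside 34.2%) and below in 7 (4.67%, beside 23.7%). At the 2-cell stage they lay above in 96 (64.0%, beside 61.5%) and below in 21 (14.0%, beside 12.5%).

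Sets of 150 were also chosen with the control libraries of a single replicate number, and MERVL-KD was compared with the control libraries of the other number. The sets chosen with replicate 1 and replicate 2 shared 84 and 85 genes with the 150 members, so they hold many other genes. What part of the differences above came from the choice itself was not tested. The median log2 fold change of the 150 members at the 4-cell stage was -0.25, beside 0.03 for all tested genes. For members chosen with replicate 1 it was -0.27 against control replicate 1 and -0.17 against control replicate 2. For members chosen with replicate 2 it was -0.35 against control replicate 2 and -0.04 against control replicate 1. All genes had medians of 0.05 and 0.07 in these fits. At the 8-cell stage the median for the 150 members was 0.14. The sets chosen with 1 number had 0.30 and 0.29 with the same replicate number and 0.09 and 0.05 with the other, beside 0.04 and 0.03 for all genes. The choice itself leans each set away from the control libraries that chose it. Nothing is therefore read from the order of the medians with the same and with the other number. At the 2-cell stage the medians were 0.06 and 0.12 with the other number.

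**Figure D5:**
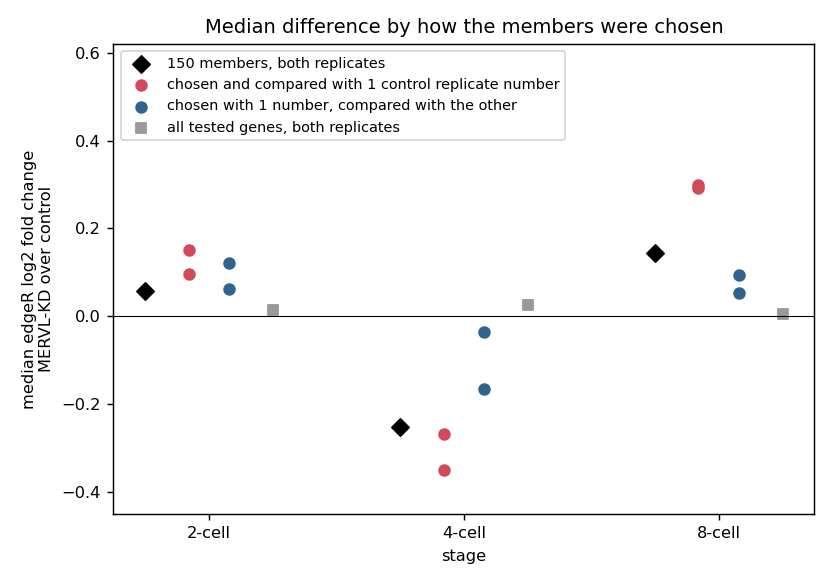
Median edgeR log2 fold change of MERVL-KD over control (y axis) at each stage (x axis) for the 150 members (black diamonds), for members chosen and compared with the same control replicate number (red), for members chosen with 1 number and compared with the other (blue), and for all tested genes (grey squares). At the 4-cell stage the blue points, -0.17 and -0.04, lie between the red points and all genes.

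Members were also examined for direct matches to the 3 MERVL ASOs. Sites that an RNA of the gene's own strand would offer were sought in GRCm38 with up to 2 mismatches. Of 150 members, 1 held such a site within its span (0.667%), beside 66 of 7068 genes with a control 4-cell mean of 10 CPM or more (0.934%). It was Rptor, the mTORC1 scaffold on chromosome 11, with matches of 0 mismatches at 119699630 to 119699649 and at 119701449 to 119701468 on the plus strand, both in introns by the deposited exon intervals. Rptor was at -0.58 ± 0.16 (adjusted p = 0.0443) in MERVL-KD against control at the 4-cell stage. Within 100000 bases upstream, 2 members had a same-strand site (1.33%, beside 1.81% of the expressed genes). The Parp8 site lay 14246 bases before the gene (chr13:117039783-117039802, minus strand, 0 mismatches). The nearest Zkscan1 site lay 15189 bases before it. Zkscan1, a zinc finger gene, was higher in MERVL-KD at the 2-cell stage by 0.48 ± 0.10 (adjusted p = 0.0041). Plekhg6, Rtcb and Ddx10 had no such site in or within this distance upstream of the gene. MERVL copies without an ASO match were not located here, and whether any site bears on the level of a gene was not tested.

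Some values rest on shared exon bases. In the deposited intervals 50 members overlapped an exon of another gene, 39 of them a gene on the opposite strand, and the strand setting of the counting is not given in the sources used here. In 9 members, 4732440D04Rik, Bid, Carf, Cspp1, Gm26648, Gm42585, Lrsam1, Ttbk2 and Zan, the other gene had at least the member's own control 4-cell CPM, and their values are the least certain. Echs1 overlapped Paox and Rtcb overlapped Ascl4, both on the opposite strand and at 1.18 and 0.307 CPM. Other genes given with values above had more abundant neighbours. Lrsam1 (10.4 CPM) overlapped Rpl12 at 262 CPM on the opposite strand. Ttbk2 (16.7 CPM) overlapped Cdan1 at 89.5 CPM on the same strand. Kdm5a (258 CPM) overlapped Ccdc77 at 46.1 CPM on the opposite strand. Members lay on 20 chromosomes, with 18 on chromosome 7, 14 on chromosome 5 and 13 on chromosome 1, and 3 pairs lay within 100000 bases of each other.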

How the data were processed

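RNA counts of 12 libraries were used; 12 ATAC-seq samples of the series were not analysed here. The authors aligned reads to GRCm38 with STAR 2.5.3a, retained those with a single alignment, assigned them to GENCODE genes and RepeatMasker families with featureCounts, and deposited raw counts without normalization. Even values made up 71.8% to 74.7% of gene counts from 1 to 50, so both mates of a pair appear to have been counted. The members and lists were chosen with earlier results of these data known. Tests used edgeR 4.0.16 in R 4.3.3 (filterByExpr, TMM, robust quasi-likelihood), with Benjamini-Hochberg adjustment across every gene and repeat family tested; the 6 MERVL-KD libraries formed 1 fit, and each stage's 4 libraries another. The method was tested on simulated data in which all genes had the same spread and few changed between stages. These libraries differ from that setting, so that test does not give the error rate here. Replicates differed by more than sampling noise (chi-square per degree of freedom 5.75 to 10.1 on halved counts). Alternatives included DESeq2 1.42.0, other scalings, the replicate number as a block (and a crossed block at the 2-cell stage, chosen after seeing the data), no low-count filter, all 12 libraries in 1 fit, halved counts and each library left out. Counting precision covers counting error only. Named genes were the 20 highest-ranked, the 3 inside and outside the threshold, members on fixed lists, the 5 highest and lowest MERVL-KD scores, up to 6 called members in each direction at the 4-cell stage, and members of the function groups. Every member named belongs to a function group or these parts, and 1 member that they include is not reported here. Coordinates are GRCm38, and promoters are from RefSeq.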

Additional observations from a re-analysis of the deposited data

How the results depend on the processing

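Relative to the 150 members, 83 were chosen again with a 4-cell mean of 5 CPM or more, 97 with 20 CPM or more, 134 with TMM-scaled CPM, 126 with CPM over gene rows only and 124 with a pseudocount of 5 CPM, and 92 to 143 without each control library in turn. Without a fold threshold the members called were 125 higher at the 4-cell than the 2-cell stage, 6 higher than at the 8-cell stage and 5 higher than at both within MERVL-KD, and 40, 35 and 9 in MERVL-KD against control (4-cell, 2-cell and 8-cell stage in turn). With library size alone 5 were higher than at the 8-cell stage, 3 higher than at both, and 6 called in MERVL-KD against control at the 8-cell stage, where no low-count filter gave 5. Leaving out each library in turn gave 71 to 80 members against the 2-cell stage, 1 to 4 against the 8-cell stage, 0 to 2 against both, 55 to 94 with a MERVL-KD peak, 7 to 12 called against control at the 4-cell stage, 12 to 15 at the 2-cell stage and 3 to 5 at the 8-cell stage. The median 4-cell difference of -0.25 ran from -0.32 to -0.18 with a library left out, and was -0.17 and -0.037 when members were chosen with a control replicate number and compared with the other. Of 35 gene and contrast pairs followed through 427 alternatives, 400 kept direction and call, 27 kept the direction and lost the call (in 9 pairs), and 0 changed direction. The replicate numbers did not pair the libraries, with correlations of same-numbered deviations from -0.15 to 0.058. With the replicate block 78, 2 and 1 members were higher at the 4-cell stage than at the 2-cell, 8-cell and both stages, and 6, 13 and 3 differed from control in the 4-cell, 2-cell and 8-cell fits. The 2-cell libraries of the same number deviated in opposite directions (-0.15), and crossing their numbers in the block, chosen after seeing the data, also called 13. The causes of these shifts were not tested. Counts per library limit members near 10 CPM, and 2 libraries a group limit every test.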
